A study of Homo sapiens with 6 samples.

Results

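Rab GTPases are small GTP-binding proteins that give each membrane compartment of the cell its identity and direct vesicles between compartments. The 52 genes described here were taken from the deposited gene table by symbol (RAB, a number and at most 1 further letter), without pseudogenes, and with a summed estimated count of at least 60 over the 6 libraries. They were 52 of 63 such symbols and of 60623 genes in the table, and all 52 were among the 14928 genes tested. Just inside the count limit lay RAB40A with 73 counts, RAB9B with 112 and RAB39B with 113, and just outside lay RAB37 with 34, RAB19 with 32 and RAB39A with 29. The other 8 symbols below the limit (RAB3C, RAB6C, RAB6D, RAB25, RAB33A, RAB36, RAB41 and RAB44) had between 0 and 11 counts in all.

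Poly-A RNA was sequenced from the human prostate cancer line DU145, an established line labelled as wild type. In 3 libraries the cells had received the solvent DMSO, and in 3 they had received 1 µM CCS1477, also called inobrodib, which blocks the bromodomains of 2 related acetyltransferases, p300 and CBP; exposure lasted 24 h in both groups. The labels do not say whether replicates were separate cultures, so the p-values measure the spread between these libraries, which may be technical. The comparison asks which transcripts the inhibitor changed. Library totals ran from 8286880 to 11956734 counts. CPM is the count of a gene scaled to its library total, and the CPM of genes below also uses TMM factors (0.982 to 1.023). The 3 counts taken as the detection floor stood for 0.251 to 0.362 CPM without those factors. The first principal component held 48.5% of the variance and separated the groups, and the second (19.9%) lay mainly between DMSO 2 and DMSO 3. All 6 epithelial-line markers examined were expressed, with a summed level of 2979 to 3646 TPM, a scale of transcript abundance corrected for length, in DMSO and 3151 to 3389 in CCS1477. Of these markers, CDH1 (log2 change -1.17) and KRT19 (-0.34) fell, while KRT8, KRT18, EPCAM and VIM did not pass; the part of this in the Rab results was not tested. Defining markers of other cell types, PTPRC of leukocytes, DCN and LUM of fibroblasts and PECAM1 of endothelium, were listed at 0 in every library. Summed over each list, the 5 leukocyte markers gave 2.93 to 4.46 TPM in DMSO and 1.99 to 3.23 in CCS1477, the 5 fibroblast markers 5.81 to 11.2 and 4.34 to 5.50, and the 4 endothelial markers 0.65 to 1.25 and 0.47 to 0.64. The last pair of lists was lower in every CCS1477 library, and their part in the results was not tested.

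A Rab protein cycles between a GTP-bound state on membranes, where it recruits effectors such as tethers and motor adaptors, and a GDP-bound state that is extracted to the cytosol. Exchange factors (GEFs) load GTP, GTPase-activating proteins (GAPs) speed its hydrolysis, and escort proteins present new Rabs for geranylgeranylation. In epithelial and tumour cells these proteins control secretion, receptor recycling, lysosomal delivery and the release of extracellular vesicles.

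Upstream sequences are shown for the 4 Rab genes with the largest changes past the threshold, 3 that fell and 1 that rose. Of the 52 genes, 43 had an entry in the RefSeq promoter table (GRCh38.p14), and there was none for RAB1A, RAB2A, RAB12, RAB15, RAB20, RAB26, RAB33B, RAB38 and RAB39B. For genes with several starts the one nearest to the gene's 5′ end in the deposited annotation was used, and only bases before both starts are printed. The stretches are chr18:9708051-9708274 on the plus strand for RAB31, chr1:206003462-206003645 on the minus strand for RAB7B, chr1:51990701-51990950 on the minus strand for RAB3B and chr19:18204043-18204292 on the minus strand for RAB3A. Each is written 5′ to 3′ on the gene's strand, and capitals mark matches on either strand to the searched motifs.
RAB31: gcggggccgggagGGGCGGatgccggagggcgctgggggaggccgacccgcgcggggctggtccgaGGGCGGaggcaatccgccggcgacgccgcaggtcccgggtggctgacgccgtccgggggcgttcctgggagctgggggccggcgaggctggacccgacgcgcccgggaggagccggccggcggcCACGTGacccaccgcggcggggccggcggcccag
RAB7B: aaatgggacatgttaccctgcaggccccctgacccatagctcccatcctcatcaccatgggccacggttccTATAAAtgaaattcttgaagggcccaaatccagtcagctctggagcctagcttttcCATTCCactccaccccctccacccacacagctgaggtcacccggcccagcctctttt
RAB3B: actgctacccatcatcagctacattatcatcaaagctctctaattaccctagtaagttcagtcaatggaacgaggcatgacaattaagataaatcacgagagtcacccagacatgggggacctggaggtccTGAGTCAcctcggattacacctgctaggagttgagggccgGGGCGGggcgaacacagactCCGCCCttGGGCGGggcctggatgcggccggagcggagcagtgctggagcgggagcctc
RAB3A: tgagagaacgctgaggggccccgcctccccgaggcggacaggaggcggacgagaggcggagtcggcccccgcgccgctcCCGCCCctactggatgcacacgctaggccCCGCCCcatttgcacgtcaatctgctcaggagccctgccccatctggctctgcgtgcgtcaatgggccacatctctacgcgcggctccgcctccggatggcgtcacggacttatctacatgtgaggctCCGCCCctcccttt
For stress- and cAMP-responsive factors, the AP-1 motif TGANTCA and the CRE motif TGACGTCA were searched. The E-box CACGTG of MYC and its relatives, the GC box GGGCGG of SP1-type factors, and the core element TATAAA of the TATA box were searched as well. Further searches used CCAAT of NF-Y, CCGGAAG of ETS factors, GGAATG of TEAD factors and the NRF1 motif. No searched motif contains another. In the 250 bases before the RefSeq start, RAB31 held an E-box 60 bases before the start, RAB3B an AP-1 match 119 bases before it, and RAB7B a TATA match 179 bases and a TEAD match 123 bases before it. RAB31, RAB3B and RAB3A each held 3 GC boxes, and RAB3A held no other searched motif. The GC box of RAB31 that lies 6 bases before the start is not among the printed bases. Among the 43 Rab promoters, 36 (83.7%) held a GC box, against 42.6% of 35116 promoters of the same length in the table, which also includes noncoding genes and several starts per gene. ETS matches were in 7 of 43 (16.3%, against 8.52% of all) and NRF1 matches in 6 of 43 (14%, against 5.07%). AP-1 matches were in 2 of 43 (4.65%, against 6.57% of all) and TATA matches in 2 of 43 (4.65%, against 10.7%). CCAAT was in 12 of 43 (27.9%, against 32%) and CRE in 0 of 43 (against 1.65%). E-boxes were in 5 of 43 (11.6%, against 6.34%) and TEAD matches in 6 of 43 (14%, against 11.9%). The median GC content was 65.6% for the Rab promoters, from 30.4% to 82%, against 58% for all. A match describes the letters only, and the start used in these cells was not measured.

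Rab transcripts spanned a wide range of levels. On the TPM scale RAB11A, the Rab of the recycling endosome, was the most abundant, at 347.2 ± 23.5 TPM in DMSO and 339.3 ± 18.2 in CCS1477 (SD, n = 3). It was followed by RAB34, which acts in cilium formation, at 209 ± 23.6 and 249.7 ± 20.6 TPM, and RAB13, of tight junction traffic, at 215.7 ± 55.3 and 164.3 ± 14.1 TPM. RAB1B, which acts between the endoplasmic reticulum and the Golgi, stood at 174.2 ± 7.56 and 185.6 ± 9.90 TPM, and RAB11B, the paralogue of RAB11A, at 139.5 ± 20.6 and 161.7 ± 18.2 TPM. Among these 5, RAB11A was above the other 4 in every library, while RAB34 and RAB13 lay within each other's spread in DMSO. At the other end, RAB39B, RAB9B and RAB40A had means below 1 TPM over the 6 libraries. Summed over the 52 genes, the level was 2612 to 2879 TPM in DMSO and 2725 to 2781 TPM in CCS1477, so the group ranges overlapped. As a share of counts, the Rab genes took 0.345% to 0.355% in DMSO and 0.334% to 0.340% in CCS1477, without overlap.

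**Figure D1:**
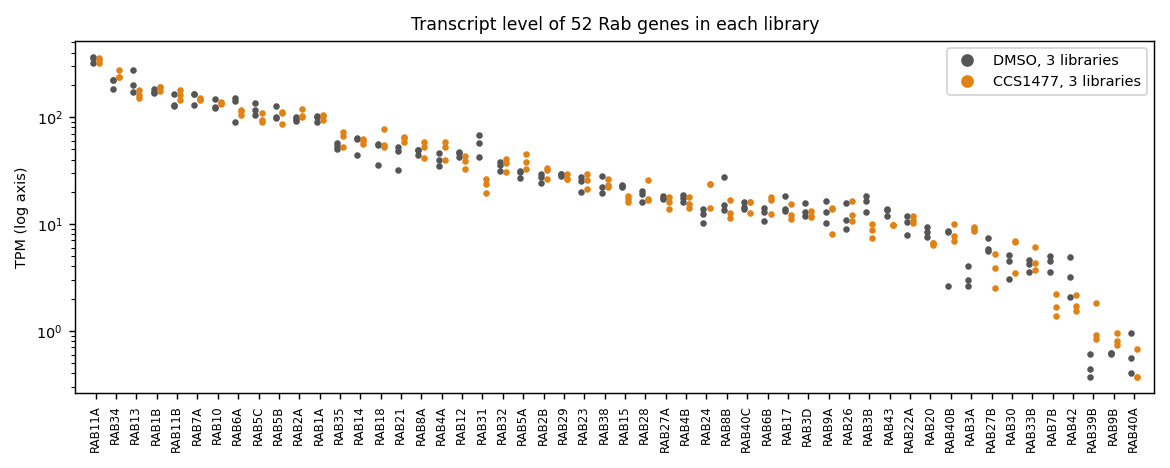
TPM of each of the 52 Rab genes (horizontal axis, ordered by mean) in each library, on a log axis, with DMSO in grey and CCS1477 in orange. RAB11A was highest at 319.76 to 366.75 TPM, and RAB31, RAB3A and RAB7B are among the genes whose groups separate.

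Most Rab genes did not pass the test. With CCS1477, 2 of 52 were higher (3.85%, where 7.23% of all tested genes were higher) and 6 were lower (11.5%, where 10.7% of all were lower), under the quasi-likelihood test of edgeR, after Benjamini-Hochberg adjustment over all 14928 genes at a threshold of 0.05. These shares lie near or below those of all tested genes and are no result about Rab genes as a family. The 6 that fell were RAB31, RAB7B, RAB3B, RAB15, RAB5C and RAB12, and the 2 that rose were RAB3A and RAB24. The median log2 fold change was -0.03 for the Rab genes and 0.00 for all tested genes. Fold changes of 43 Rab genes lay within 0.5 on the log2 scale of no change. Groups did not overlap in 21 of 52 (40.4%, where 35.9% of all tested genes had such groups), 9 with CCS1477 above DMSO and 12 below. The count of Rab genes that rose was 1 without DMSO 1, DMSO 2, CCS1477 2 or CCS1477 3, and the count that fell was 3 without CCS1477 2. In those 4 fits 555, 1090, 489 and 487 of all tested genes rose, against 1079. Without CCS1477 2, 925 of all tested genes fell, against 1597. With scaling by library size only, 4 Rab genes rose and 4 fell, as RAB14 and RAB21 then passed and RAB5C and RAB12 did not.

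**Figure D2:**
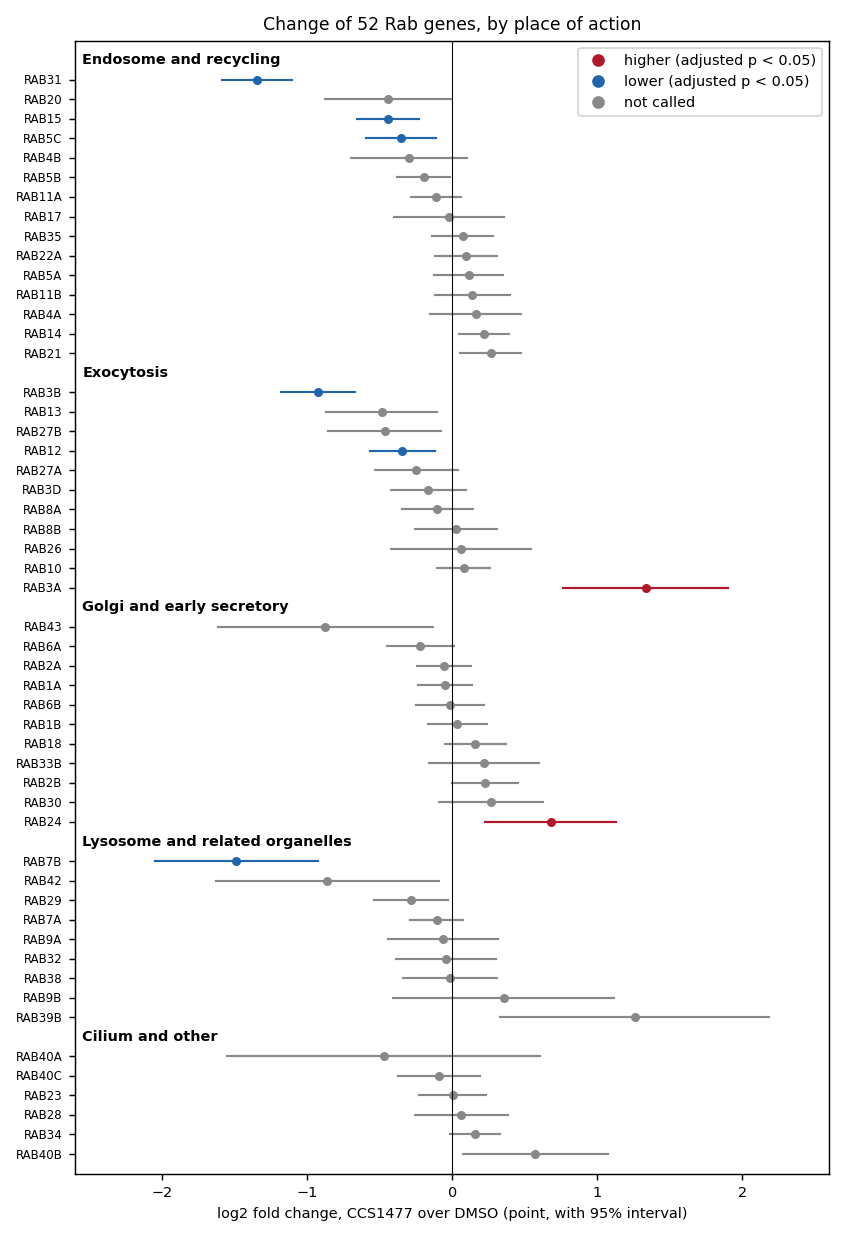
Log2 fold change of CCS1477 over DMSO for each Rab gene (points, with 95% intervals from the edgeR fit), grouped by place of action, with genes that fell in blue, genes that rose in red and the rest in grey. RAB7B, RAB31 and RAB3B lie farthest to the left of the genes that passed, and RAB3A farthest to the right.

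Each Rab gene was assigned to a single place of action, with earlier results of these data known. The shares by group depend on that assignment. Endosomal and recycling Rabs were 15 of the 52, of which 3 fell (20%, against 10.7% of all tested genes) and 0 rose (against 7.23%). At an unadjusted p under 0.05 in the edgeR fit, 2 were higher and 5 were lower. The all-gene share at that limit was not computed, but is at least the 17.9% called in either direction after adjustment. Such unadjusted counts, here and for the groups below, are no result about a group. DESeq2 also gave 0 higher, library-size scaling gave 2, and without CCS1477 2 the count that fell was 1. RAB31, also known as RAB22B, carries cargo between the trans-Golgi network and endosomes (ENSG00000168461, chromosome 18, 9708275 to 9862551). It stood at 142.9, 154.8 and 124.1 CPM in DMSO libraries 1 to 3 and at 61.8, 52.6 and 51.9 CPM in CCS1477 libraries 1 to 3. Every CCS1477 value was below every DMSO value, by a wide gap. RAB31 fell from 140.6 ± 15.45 to 55.4 ± 5.55 CPM (SD, n = 3), a log2 change of -1.34 ± 0.11 (SE, adjusted p = 1.25e-05, quasi-likelihood test in edgeR), which is 2.54-fold lower. Only 2.08% of all tested genes had a lower log2 fold change. Its call held under all 15 alternatives run, which are listed in the processing notes, with log2 fold changes from -1.43 to -1.22.

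The closest paralogue, RAB22A, an early endosome Rab, did not pass. RAB22A was at 60.5 ± 4.77 CPM under DMSO and 64.8 ± 1.78 CPM under CCS1477, a log2 change of 0.10 with a 95% interval from -0.12 to 0.31. In TPM, RAB31 made up 84.4%, 85.0% and 84.4% of the RAB22A and RAB31 sum in DMSO 1 to 3, and 68.3%, 62.0% and 72.05% in CCS1477 1 to 3. The sum itself went from 65.7 ± 14.8 to 34.1 ± 2.79 TPM (SD, n = 3). The log2 ratio of RAB31 to RAB22A counts was 1.21 ± 0.046 in DMSO and -0.23 ± 0.181 under CCS1477 (exact permutation test, two-sided, p = 0.1, the smallest that 3 against 3 allows, and 0.12 after Benjamini-Hochberg adjustment over the 6 paralogue pairs compared, which were chosen after their values were seen).

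RAB15, which acts in endocytic recycling (ENSG00000139998, chromosome 14), was at 55.2, 53.0 and 54.8 CPM under DMSO and 39.0, 39.2 and 41.6 CPM under CCS1477. The libraries of each group were tight and the groups did not overlap. It fell by 0.44 on the log2 scale (SE 0.098, adjusted p = 0.00939, quasi-likelihood test in edgeR), but did not pass without CCS1477 2 (adjusted p = 0.0571) or in limma on either TPM scale. RAB5C, 1 of 3 RAB5 paralogues that drive early endosome fusion (chromosome 17), was at 128.5, 104.0 and 130.6 CPM under DMSO and 88.5, 90.9 and 104.3 CPM under CCS1477. Its groups met, since DMSO 2 and CCS1477 3 had nearly the same value. RAB5C had a log2 change of -0.36 (SE 0.110, adjusted p = 0.0441, quasi-likelihood test in edgeR), and its call ended without any 1 library other than DMSO 2, with adjusted p up to 0.167, and with the replicate number as a block (adjusted p = 0.0527). The other RAB5 genes did not pass: RAB5A had a log2 change of 0.11 (95% interval -0.12 to 0.35) and RAB5B of -0.20 (95% interval -0.38 to -0.01, adjusted p = 0.129 in the same edgeR fit). RAB5C made up 46.2% ± 4.37 of the RAB5 sum in TPM in DMSO and 40.9% ± 3.97 in CCS1477, with overlapping groups. The log2 ratio of RAB5C to RAB5A counts was 1.42 ± 0.292 in DMSO and 0.95 ± 0.058 with CCS1477, without overlap. Its exact permutation p was 0.1, the smallest possible here, and 0.12 after adjustment. The log2 ratio of RAB5C to RAB5B counts was -0.70 ± 0.157 and -0.85 ± 0.196 (exact permutation p = 0.3).

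Among the 12 endosomal Rabs that did not pass were the most studied recycling regulators. RAB11A was at 161.8, 157.9 and 158.2 CPM under DMSO and 150.1, 145.0 and 147.1 CPM under CCS1477. All 3 CCS1477 values were lower, but by little: the log2 fold change was -0.11, with a 95% interval from -0.28 to 0.06. RAB35, of endocytic recycling, stood at 0.07 (-0.14 to 0.28) and RAB11B at 0.14 (-0.12 to 0.40). RAB14, of traffic between endosomes and Golgi, and RAB21, of integrin endocytosis, were chosen after their values were seen. Both had CCS1477 libraries above all DMSO libraries, with log2 fold changes of 0.22 and 0.27 and adjusted p = 0.0753 and 0.0762 (quasi-likelihood test in edgeR).

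**Figure D3:**
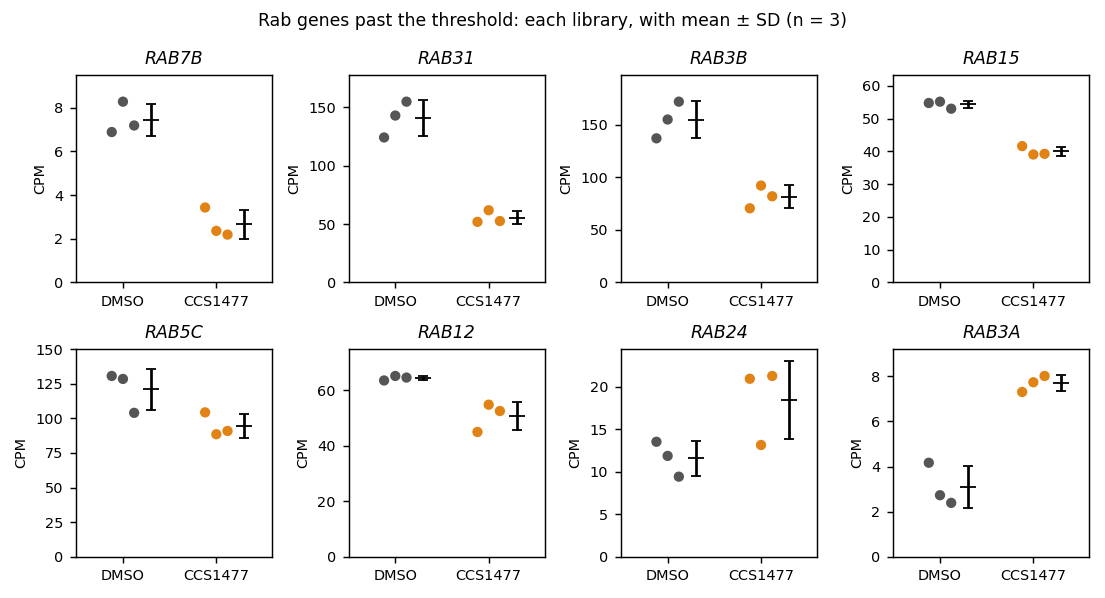
CPM of the 8 Rab genes past the threshold in each library (points, DMSO grey and CCS1477 orange), with mean ± SD (n = 3) beside them and axes from 0. RAB31, RAB7B, RAB3B, RAB15, RAB12 and RAB3A have separate groups, and RAB5C and RAB24 have overlapping ones.

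Of the 11 Rabs of exocytosis, 2 fell (18.2%, against 10.7% of all tested genes) and 1 rose (9.09%, against 7.23%), and of the RAB3 genes of regulated secretion RAB3B fell and RAB3A rose. The count that fell was 1 without DMSO 1 or any 1 CCS1477 library and 3 without DMSO 3. Of all tested genes, 973 fell without DMSO 1, 1169, 925 and 1042 without CCS1477 1 to 3, and 1772 without DMSO 3, against 1597. RAB3B (ENSG00000169213, chromosome 1, 51907956 to 51990700) was at 154.9, 171.9 and 137.0 CPM under DMSO and 92.1, 81.9 and 70.5 CPM under CCS1477. The highest CCS1477 value lay well below the lowest DMSO value. RAB3B fell from 154.6 ± 17.4 to 81.5 ± 10.8 CPM (SD, n = 3), a log2 change of -0.92 ± 0.12 (SE, adjusted p = 0.000303, quasi-likelihood test in edgeR), and the call held without any 1 library. In limma its difference was -0.80 on the log2(TPM + 1) scale (adjusted p = 0.0527) and -0.86 with a pseudocount of 0.1 (adjusted p = 0.052).

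RAB3A, best known from synaptic vesicles (ENSG00000105649, chromosome 19, 18196784 to 18204042), was at 2.73, 2.39 and 4.17 CPM under DMSO and 7.74, 8.02 and 7.31 CPM under CCS1477. All CCS1477 values were above all DMSO values, at a level that remained low in both groups. RAB3A rose from 3.10 ± 0.946 to 7.69 ± 0.355 CPM (SD, n = 3), a log2 change of 1.33 ± 0.26 (SE, adjusted p = 0.00459, quasi-likelihood test in edgeR), and kept its call under all 15 alternatives, with values from 1.19 to 1.58. Its coordinates overlap MPV17L2 on the other strand, whose log2 fold change was 0.53 (adjusted p = 0.064 in the same edgeR fit), and because strandedness of the counting is not given, reads of the overlap cannot be told apart. The third expressed paralogue, RAB3D, of exocrine secretion, went from 38.4 ± 4.39 to 34.2 ± 1.195 CPM and did not pass (log2 fold change -0.16, 95% interval -0.42 to 0.09).

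The makeup of the RAB3 transcripts differed between the groups, while the ranges of their sum in TPM overlapped. On the CPM scale, where RAB3B takes most of the sum, every CCS1477 library was below every DMSO library. In TPM, RAB3A took 9.61%, 7.18% and 13.5% of the RAB3A, RAB3B and RAB3D sum in DMSO 1 to 3 and 28.7%, 28.96% and 32.8% in CCS1477 1 to 3. RAB3B took 52.3%, 49.9% and 43.3% in DMSO and 33.1%, 28.4% and 25.9% in CCS1477, and RAB3D took 41.4% ± 2.88 and 40.7% ± 2.27. The sum was 32.7 ± 3.57 TPM in DMSO and 29.8 ± 1.19 TPM in CCS1477. The log2 ratio of RAB3A to RAB3B counts was -5.68 ± 0.579 in DMSO and -3.40 ± 0.157 under CCS1477 (SD over 3 libraries; exact permutation test, two-sided, p = 0.1, the smallest possible here, and 0.12 after adjustment over the 6 pairs).

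**Figure D4:**
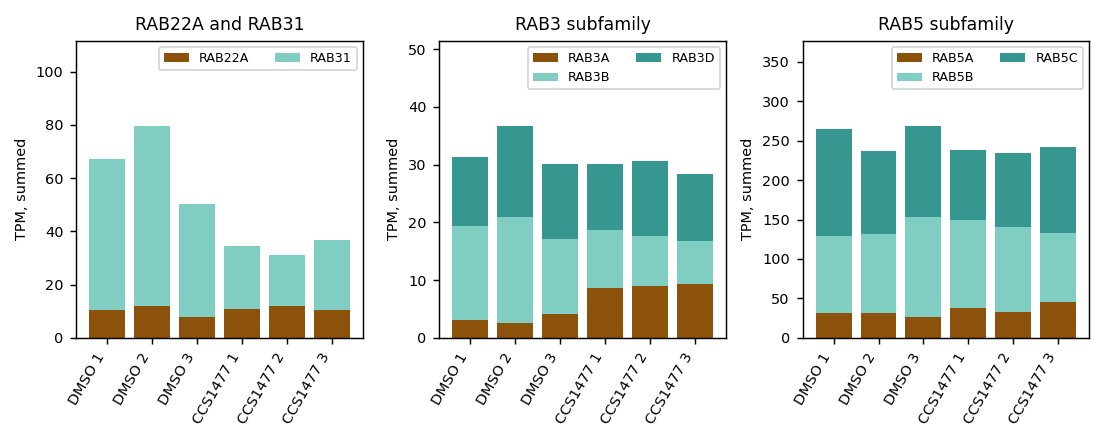
Stacked TPM of paralogues in each library for RAB22A with RAB31, the RAB3 genes and the RAB5 genes, with bars from 0. RAB31 shrinks while RAB22A stays between 7.84 and 11.95 TPM, RAB3A grows as RAB3B shrinks, and the RAB5 bars differ little.

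RAB12 (chromosome 18), known as a substrate of the kinase LRRK2, was counted with the exocytosis Rabs. It was at 65.2, 64.7 and 63.6 CPM under DMSO and 54.9, 52.6 and 45.0 CPM under CCS1477. The groups did not overlap, and CCS1477 3 was the lowest. RAB12 fell by 0.34 on the log2 scale (SE 0.104, adjusted p = 0.040, quasi-likelihood test in edgeR). That call ended without any 1 library other than DMSO 3, with adjusted p up to 0.169, with the replicate block (adjusted p = 0.0696) and under 5 other alternatives. RAB27A and RAB27B dock multivesicular bodies and secretory organelles at the plasma membrane and are tied to exosome release. RAB27A was at 24.3, 28.0 and 24.3 CPM under DMSO and 23.9, 20.5 and 20.2 CPM under CCS1477, with a log2 change of -0.25 (95% interval -0.54 to 0.04, adjusted p = 0.224, quasi-likelihood test in edgeR). RAB27B was at 23.0, 25.7 and 18.0 CPM under DMSO and 19.2, 16.6 and 12.8 CPM under CCS1477, with overlapping groups. Its log2 fold change was -0.47 (95% interval -0.86 to -0.07, adjusted p = 0.0951, quasi-likelihood test in edgeR), and it passed only without DMSO 3 (adjusted p = 0.0247). RAB13, named for its level, reached 216.8 CPM in DMSO 3, above DMSO 1 at 138.6 CPM, DMSO 2 at 120.9 CPM and the CCS1477 range of 107.5 to 122.2 CPM, with a log2 change of -0.49 (adjusted p = 0.0752, quasi-likelihood test in edgeR). Its value was -0.20 without DMSO 3, and it passed in DESeq2, without a filter on low counts and without DMSO 2.

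In the lysosomal group of 9, 1 gene fell (11.1%, against 10.7% of all tested genes) and 0 rose (against 7.23%). At an unadjusted p under 0.05 in the edgeR fit, 1 was higher and 3 were lower (RAB7B, RAB29 and RAB42), without an all-gene share. RAB42, chosen after its values were seen, had 12 to 42 counts per library. Its log2 change was -0.86 (adjusted p = 0.114, quasi-likelihood test in edgeR). RAB42, at 2.86 CPM in DMSO and 1.57 in CCS1477, overlaps TAF12 on the other strand. TAF12 stood at 14.04 and 12.56 CPM, so their reads may not be separable. DESeq2 also gave 0 higher in this group, and the fit without a filter on low counts gave 1. RAB7B, which acts between late endosomes and the trans-Golgi network (ENSG00000276600, chromosome 1, 205976740 to 206003461), was at 8.27, 7.18 and 6.88 CPM under DMSO and 2.36, 2.19 and 3.43 CPM under CCS1477. The groups were far apart, at levels that rested on 21 to 97 counts per library. RAB7B fell by 1.49 on the log2 scale (SE 0.258, adjusted p = 0.00237, quasi-likelihood test in edgeR), a 2.81-fold lower level, and the call held under all 15 alternatives with values from -1.71 to -0.95. RAB7A, the main Rab of late endosomes and lysosomes, was at 241.9, 240.8 and 215.4 CPM under DMSO and 214.8, 211.8 and 222.0 CPM under CCS1477. Its groups overlapped and its log2 fold change was -0.11 (95% interval -0.29 to 0.08). RAB7A made up 97.2% ± 0.182 of the RAB7 sum in TPM in DMSO and 98.8% ± 0.270 in CCS1477, and the sum went from 156.3 ± 19.15 to 149.7 ± 2.99 TPM. The log2 ratio of RAB7B to RAB7A counts was -4.97 ± 0.098 in DMSO and -6.38 ± 0.313 with CCS1477. The exact permutation test gave p = 0.1, the smallest possible here, and 0.12 after adjustment. This pair was chosen after its values were seen. RAB39B, a neuronal Rab chosen after its values were seen, was at 1.45, 1.03 and 0.98 CPM under DMSO and 4.26, 1.98 and 2.17 CPM under CCS1477. The CCS1477 values were all higher, with CCS1477 1 far above the rest, and the log2 fold change of 1.26 did not pass (95% interval 0.33 to 2.19, adjusted p = 0.0617, quasi-likelihood test in edgeR). RAB39B passed without a filter (adjusted p = 0.0389), and its value was 0.83 without CCS1477 1.

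The 11 Golgi and early secretory Rabs included 1 that rose (9.09%, against 7.23% of all tested genes) and 0 that fell (against 10.7%). At an unadjusted p under 0.05 in the edgeR fit, 1 was lower and 2 were higher, again without an all-gene share. DESeq2 also gave 0 lower, whereas limma-voom, no filter, the replicate block and the fits without DMSO 3 or CCS1477 3 each gave 1. RAB24 (chromosome 5), an atypical Rab tied to autophagy, was counted in this group. It was at 11.8, 9.41 and 13.5 CPM under DMSO and 13.1, 21.2 and 20.9 CPM under CCS1477. CCS1477 1 lay within the DMSO range, while the other CCS1477 libraries lay above it. RAB24 rose at a log2 change of 0.68 (SE 0.208, adjusted p = 0.0424, quasi-likelihood test in edgeR). This call ended without DMSO 1, DMSO 2, CCS1477 2 or CCS1477 3, with adjusted p up to 0.163, with the replicate block (adjusted p = 0.0505) and on both TPM scales, and RAB24 overlaps MXD3 on the same strand. The carriers of bulk traffic did not pass: RAB1A had a log2 change of -0.05 (95% interval -0.23 to 0.14), RAB1B of 0.04 (-0.17 to 0.24) and RAB2A of -0.06 (-0.24 to 0.13). RAB43, chosen after its values were seen, overlaps the readthrough gene ISY1-RAB43. It was at 6.96 and 7.70 CPM in CCS1477 1 and 2 but 20.9 CPM in CCS1477 3, against 18.0 to 27.4 CPM in DMSO, whereas its TPM was 9.79, 9.82 and 9.86 in CCS1477 and 11.94 to 13.87 in DMSO. Its log2 fold change was -0.88 (adjusted p = 0.0976, quasi-likelihood test in edgeR), and -1.56 without CCS1477 3 (adjusted p = 0.00215) and -1.01 with the replicate block (adjusted p = 0.00785); it also passed in limma-voom and without a filter. RAB6A, of transport through the Golgi, went from 206.6 ± 20.3 to 177.6 ± 19.9 CPM (log2 change -0.22, 95% interval -0.45 to 0.01) and passed only without DMSO 3, while its paralogue RAB6B was at 35.0 ± 2.31 and 34.6 ± 0.201 CPM.

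None of the 6 ciliary and other Rabs passed in edgeR or DESeq2. At an unadjusted p under 0.05 in the edgeR fit, 1, RAB40B, was higher and 0 were lower, without an all-gene share. RAB34, the most abundant of them, was at 167.6, 164.7 and 173.7 CPM under DMSO and 181.0, 190.8 and 192.1 CPM under CCS1477. The groups did not overlap, but the log2 change of 0.16 did not pass (95% interval -0.02 to 0.33). RAB23, a negative regulator of Hedgehog signalling, was at 66.5 ± 5.80 and 66.7 ± 5.50 CPM, and its log2 change of 0.00 had a 95% interval from -0.23 to 0.23. RAB40B, also chosen after its values were seen, which links to a ubiquitin ligase, went from 4.81 ± 0.576 to 7.18 ± 1.36 CPM (log2 change 0.57, adjusted p = 0.108, quasi-likelihood test in edgeR). RAB40C, its paralogue, stood at -0.09 (-0.37 to 0.19).

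Other Rabs with well-described roles, chosen after their values were seen, did not pass the test. RAB8A and RAB10, which carry cargo to the plasma membrane and the cilium, stood at -0.10 (95% interval -0.35 to 0.14) and 0.08 (-0.10 to 0.26) on the log2 scale, and RAB8B at 0.03 (-0.26 to 0.31). RAB4A, of fast recycling, stood at 0.16 (-0.15 to 0.47) and its paralogue RAB4B at -0.30 (-0.70 to 0.10). RAB18, of lipid droplets and the endoplasmic reticulum, went from 64.4 ± 2.16 to 71.9 ± 5.54 CPM (log2 change 0.16, -0.05 to 0.37), with groups that did not overlap. RAB29, a Parkinson's disease-linked partner of LRRK2, went from 46.4 ± 3.98 to 38.0 ± 3.66 CPM, also without overlap (log2 change -0.29, adjusted p = 0.113, quasi-likelihood test in edgeR). RAB32, of melanosomes and related organelles, stood at -0.04 (-0.39 to 0.30), and RAB9A, of transport from late endosomes to the Golgi, at -0.06 (-0.44 to 0.32). RAB38, the paralogue of RAB32, was at 20.7 ± 3.29 and 20.5 ± 1.64 CPM. RAB20, of phagosome and endosome maturation, went from 8.11 ± 0.955 to 5.95 ± 0.222 CPM without overlap, and its log2 change of -0.44 did not pass (adjusted p = 0.148, quasi-likelihood test in edgeR).

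Genes that load, switch off, modify or read Rab proteins were taken from 5 lists of 137 genes, of which 133 were tested. Of these, 17 rose (12.8%, against 7.23% of all tested genes) and 14 fell (10.5%, against 10.7%), and their median log2 difference was 0.01. The 17 became 6 without DMSO 1 or CCS1477 2, 7 without CCS1477 3 and 11 without CCS1477 1, and the 14 became 7, 6 and 7 without DMSO 1, CCS1477 2 and CCS1477 3. Over all tested genes, the 1079 that rose became 555, 1090 and 1311 without DMSO 1, 2 and 3. They became 731, 489 and 487 without CCS1477 1, 2 and 3. The 1597 that fell became 973, 1532 and 1772, and 1169, 925 and 1042, in the same order. These all-gene counts also belong beside the fits without 1 library named for each list below. Of the 31 calls, 8 held without any 1 library: CHML, RABIF, RAB3IL1, RIN2, DENND5B, TBC1D14, SGSM3 and UNC13D.

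Among 8 genes of prenylation and recycling, 3 rose (37.5%, against 7.23% of all tested genes) and 1 fell (12.5%, against 10.7%). CHML, the escort protein also called REP2, fell from 40.5 ± 2.25 to 24.0 ± 4.56 CPM (SD, n = 3), a log2 change of -0.76 (adjusted p = 0.00351, quasi-likelihood test in edgeR). CHML overlaps OPN3 on the same strand, which stood at -0.77, so their reads may not be separable. The escort gene CHM was at -0.02. RABIF, also called MSS4, which binds nucleotide-free exocytic Rabs, rose at 0.56 and RABGGTB, the catalytic subunit of the Rab geranylgeranyl transferase, at 0.46. RABGGTB lost its call without any 1 library other than DMSO 3, and 1 gene of this list then rose.

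Of 37 tested GEFs, 5 rose (13.5%, against 7.23% of all tested genes) and 5 fell (13.5%, against 10.7%). RAB3IL1, also called GRAB, an exchange factor for RAB3A and RAB8, was at 13.4, 14.4 and 15.7 CPM under DMSO and 2.92, 5.73 and 4.46 CPM under CCS1477. The groups were far apart, and RAB3IL1 fell by 1.72 on the log2 scale (SE 0.230, adjusted p = 0.000424, quasi-likelihood test in edgeR), with its call kept under all 15 alternatives. RIN2, an exchange factor for RAB5, fell from 29.5 ± 1.67 to 15.4 ± 1.33 CPM (SD, n = 3), a log2 change of -0.94 (adjusted p = 0.000528, quasi-likelihood test in edgeR). DENND5B, of the DENN-domain exchange factors, fell by 0.54, while SBF2 and SBF1, myotubularin-related DENN proteins, rose at 0.52 and 0.36, with calls held in 3 and 4 of the 6 fits without 1 library. SBF2 shares its locus with SBF2-AS1, which stood at -0.99. The rising GEFs numbered 1 without DMSO 1 or CCS1477 1, 2 without CCS1477 2, 3 without DMSO 3 and 0 without CCS1477 3, and the falling ones 3 without DMSO 1, CCS1477 2 or CCS1477 3. Library-size scaling gave 9 rising GEFs, the fit without a filter 8 and the replicate block 2.

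Of 35 GAPs, 7 rose (20%, against 7.23% of all tested genes) and 4 fell (11.4%, against 10.7%). SGSM3, a TBC-domain GAP, rose from 34.5 ± 1.55 to 58.8 ± 6.99 CPM (SD, n = 3), a log2 change of 0.77 (adjusted p = 0.000899, quasi-likelihood test in edgeR). Its call held under all 15 alternatives, but it overlaps MRTFA, which stood at 0.37, and ADSL at 0.20. RAB3GAP1, the catalytic subunit of the RAB3 GAP, rose at 0.43 and TBC1D24 at 0.58, both without a call when DMSO 1 was left out. TBC1D14, which binds RAB11 and acts in autophagy, fell by 0.43 and overlaps ENSG00000245748 on the other strand, which stood at -0.54 (adjusted p = 0.00378 in the same edgeR fit). TBC1D5, which acts with retromer on RAB7, fell by 0.37. TBC1D5 passed only with DMSO 3 left out among the 6 fits without 1 library. The rising GAPs numbered 2 without DMSO 1 or CCS1477 2, and the falling ones 1 without any 1 library other than DMSO 3. Falling GAPs also numbered 2 in DESeq2, with library-size scaling and without a filter, and 1 with the replicate block.

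Of 45 tested effectors, 2 rose (4.44%, against 7.23% of all tested genes) and 3 fell (6.67%, against 10.7%). UNC13D, also called Munc13-4, a RAB27 effector that primes secretory granules, was at 9.12, 7.44 and 7.24 CPM under DMSO and 2.69, 2.81 and 1.94 CPM under CCS1477. The groups did not overlap, and UNC13D fell by 1.67 on the log2 scale (SE 0.252, adjusted p = 0.000939, quasi-likelihood test in edgeR), by 0.97 on the log2(TPM + 1) scale, where it did not pass. RPH3AL, also called Noc2, which binds RAB3 and RAB27, fell by 0.57, a call lost without CCS1477 2 or CCS1477 3. EXPH5, a RAB27 effector of secretory vesicles, fell from 16.7 ± 2.75 to 10.4 ± 1.79 CPM (log2 change -0.69), a call held in 2 of the 6 fits without 1 library. RABEP2, a rabaptin of endosomes, rose at 0.74 and RAB11FIP3, which carries RAB11 endosomes to the dividing cell's midzone, at 0.64, lost without CCS1477 3 and CCS1477 2 in turn. Leaving out DMSO 3 gave 5 rising effectors, and leaving out CCS1477 2 or CCS1477 3 gave 1 rising and 1 falling. In the list of 8 Rab-like and large Rab genes, CRACR2A, a large Rab with calcium-binding EF hands, fell by 0.68 and overlaps an unnamed gene on the same strand (ENSG00000280202) at -2.11, and among the fits without 1 library its call held only without DMSO 2 or CCS1477 3. The next smallest adjusted p values in that list were above the threshold: RABL2B and RABL2A, near-identical paralogues of ciliary function, stood at 0.45 and 0.57, and IFT22, of intraflagellar transport, at 0.32.

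**Figure D5:**
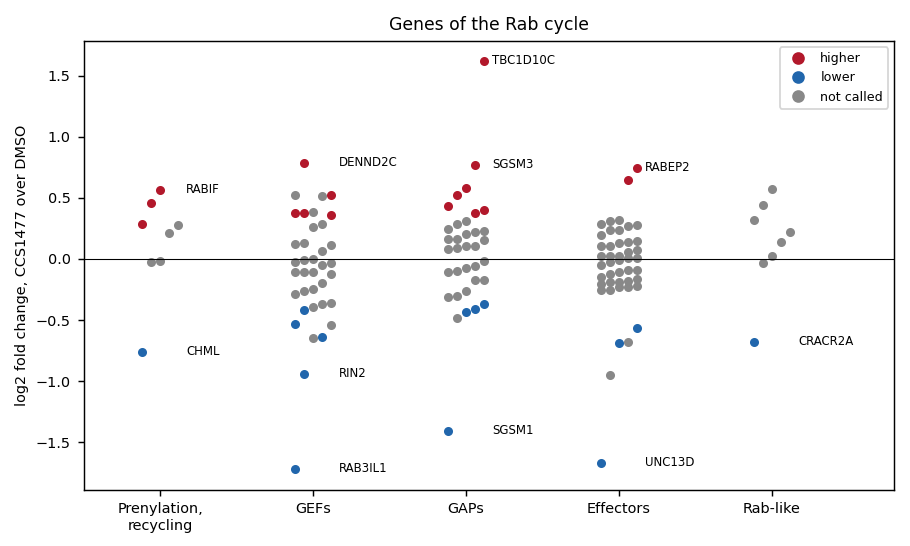
Log2 fold change of CCS1477 over DMSO for the 133 tested genes of the Rab cycle, each a point, by list (horizontal offsets only separate the points), with genes past the threshold in colour. RAB3IL1 and UNC13D lie lowest at -1.72 and -1.67, and TBC1D10C, labelled for its position, highest at 1.62. TBC1D10C rested on 14 to 66 counts per library, and its call was lost without DMSO 1 or CCS1477 2. It overlaps PPP1CA on the other strand, which stood at 198.5 CPM in DMSO and 224 in CCS1477, so their reads may not be separable.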

How the data were processed

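Messenger RNA of 6 DU145 libraries was measured, 3 per group by the sample titles. The authors deposited estimated counts per gene, not normalized (10.2% to 10.7% of nonzero values per library not whole), and TPM that sum to the same total in each library. Per the submitters' processing notes Trimmomatic 0.39 was used; the aligner, quantifier, genome build and strandedness were not given in the sources used here. All 52 Rab genes lay on the same chromosome as, and overlapped, their GENCODE 29 (GRCh38) entries, 24 with identical coordinates; gene coordinates are printed as deposited.

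Estimated counts were rounded, filtered with filterByExpr (minimum count 10, minimum total 15), scaled by TMM and compared with edgeR 4.0.16's quasi-likelihood test without covariates in R 4.3.3, with Benjamini-Hochberg adjustment. CPM values use the TMM factors, and SEs and 95% intervals derive from the test statistic. Floors use no TMM factors and cover counting error only. The procedure was tested on simulated data. The 15 alternatives were DESeq2 1.42.0, library-size and upper-quartile scaling, limma 3.58.1 with voom weights, limma on TPM at pseudocounts of 1 and 0.1, no filter, a stricter filter (50 counts in 3 libraries), the replicate block, and leaving out each of the 6 libraries. Named were all Rab genes past the threshold, their paralogues, the 5 most abundant, 7 fixed genes (RAB27A, RAB27B, RAB11A, RAB35, RAB7A, RAB5A, RAB31), and from each regulator list up to 4 genes of smallest adjusted p and up to 2 called genes of opposite sign; other Rab genes named were chosen after their values were seen. Members and lists were chosen with earlier results of these data known. Promoters come from RefSeq (GRCh38.p14), and plots were drawn with matplotlib 3.10.9. Some genes of the lists are not reported here.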

Additional observations from a re-analysis of the deposited data

How the results depend on the processing

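RAB31, RAB7B and RAB3A kept their direction and call under all 15 alternatives, RAB3B under 13, RAB15 under 12, RAB24 under 8, RAB5C under 5 and RAB12 under 4. Rab genes that rose numbered 4 with library-size scaling, 1 with the replicate block, 1 in limma on log2(TPM + 1) and 1 on log2(TPM + 0.1), and 1 to 2 with 1 library left out, against 2. Those that fell numbered 2 on both TPM scales and 3 to 7 with 1 library left out, against 6. Over all tested genes, 1079 rose and 1597 fell; on log2(TPM + 1) these were 293 and 427, on log2(TPM + 0.1) 280 and 410, and with 1 library left out 487 to 1311 and 925 to 1772. With library-size scaling they were 1456 and 1361, which shifted the median log2 fold change to 0.045. Of the regulator genes, 17 rose and 14 fell; on both TPM scales 3 rose and 1 fell, and with 1 library left out 6 to 19 rose and 6 to 13 fell. The cause of these moves was not tested.

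The labels do not say whether the shared replicate numbers pair the libraries. Same-numbered libraries had deviations from their group means that correlated at -0.09, -0.20 and -0.01, and none correlated best with its own number. Deviations within a group of 3 are tied to each other, so these correlations cannot decide whether cultures were handled in pairs. The replicate block gave 5 Rab genes lower and 1 higher and 799 genes higher and 1306 lower over all. Depth limits the least expressed Rab genes, such as RAB40A with 7 to 24 counts per library, whose 95% interval ran from -1.55 to 0.60.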
